A study of Mus musculus with 4 samples.

Results

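Solute carriers are the membrane proteins that move amino acids, sugars, nucleosides, metal ions, vitamins and inorganic ions across the plasma membrane and the membranes of organelles. The genes described here are all symbols in the deposited table that begin with Slc and a digit, without the mitochondrial Slc25 family and without Slc2a1, Slc4a2, Slc9b2, Slc11a1, Slc11a2 and Slc40a1. The rule uses names only and gave 189 genes of 17194 symbols, out of 235 symbols that begin this way (40 were Slc25 genes and 6 were the named exceptions). Of the 189, 6 carry a carrier's name without being carriers (Slc4a1ap, Slc9a3r1, Slc9a3r2, Slc7a6os, Slc39a1-ps and Slc2a4rg-ps), and they were kept because the rule keeps them.

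The samples were primary mouse macrophages derived from bone marrow. All 4 had received RANKL, the cytokine that drives such cells to become osteoclasts, and were collected at day 2. The siControl group (n = 2 libraries) and the siHells group (n = 2 libraries) differed by the siRNA, which in siHells was directed against Hells, a chromatin remodeller of the SNF2 family. The labels give neither mouse strain and age nor the siRNA sequences. Nothing in the labels says that the libraries of a group came from separate animals or cultures, so a p-value here reflects only how much these libraries differ, which may be technical variation.

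Osteoclasts and macrophages depend heavily on this class of protein. Macrophages degrade engulfed material in lysosomes, and carriers of the lysosomal membrane return the amino acids, sugars, nucleosides and metals to the cytosol. Osteoclast precursors take up amino acids, glucose, phosphate and osmolytes as they grow and fuse, and they exchange protons, bicarbonate and chloride to resorb bone. Many carriers work as obligate exchangers or need a partner subunit, so the transcript level alone does not give a flux.

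Levels are CPM (each library's counts scaled by TMM to a common total), and changes are log2 fold changes of siHells over siControl with their standard errors (SE). A gene is said to have risen or fallen where its adjusted p was under 0.05 by edgeR's quasi-likelihood test, where the Benjamini-Hochberg adjustment covered all 15651 genes tested. The libraries held between 48873635 and 55642819 counts. The 189 genes took 0.983% and 0.984% of the counts in siControl and 0.951% and 0.952% in siHells. Hells itself was at 29.3 and 30.0 CPM in siControl and 15.2 and 14.6 CPM in siHells, a 1.99-fold fall. All 11 listed osteoclast genes fell (median log2 fold change -2.08, summed level 8830 and 8902 CPM in siControl and 1554 and 1510 CPM in siHells). Of 10 macrophage genes 9 rose and 1 fell (17299 and 17418 CPM against 29852 and 28912 CPM). Of 10 stromal genes 7 rose and 2 fell, from 1011 and 1035 CPM to 1810 and 1782 CPM, while the 3 T cell genes of 7 that the table holds all fell, from 76.0 and 71.2 CPM to 27.5 and 27.9 CPM. The part of these markers in any carrier's change was not tested, and in bulk RNA fewer cells of a type and less RNA per cell cannot be told apart.

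Of the 186 solute carrier genes that passed the filter on low counts, 138 were called between siControl and siHells, which is 74.2% against a background of 58.5% of all genes tested. Calls went both ways: 73 carriers rose (39.2%, background 29.0%) and 65 fell (34.9%, background 29.5%), and 48 were not called. Changes of at least 2-fold were found for 25 rises (13.4%, background 6.75%) and 22 falls (11.8%, background 5.52%). The siHells libraries lay wholly above or below the siControl libraries for 162 carriers (87.1%, background 78.5%), among them all 138 that were called. The median log2 fold change of the carriers was 0.02, against -0.00 for all genes tested, and single carriers ranged from -4.02 to 3.62. The other 3 members, Slc12a1, Slc26a8 and Slc8a3, had too few counts to be tested. In 28 of the 138 called carriers the call was lost in at least 1 fit that left out a library. A test against a 1.5-fold change called 26 rises and 30 falls. For the counts by role and list below, the background is the same: 29.0% of all genes tested rose and 29.5% fell. No role or list was tested as a set.

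**Figure D1:**
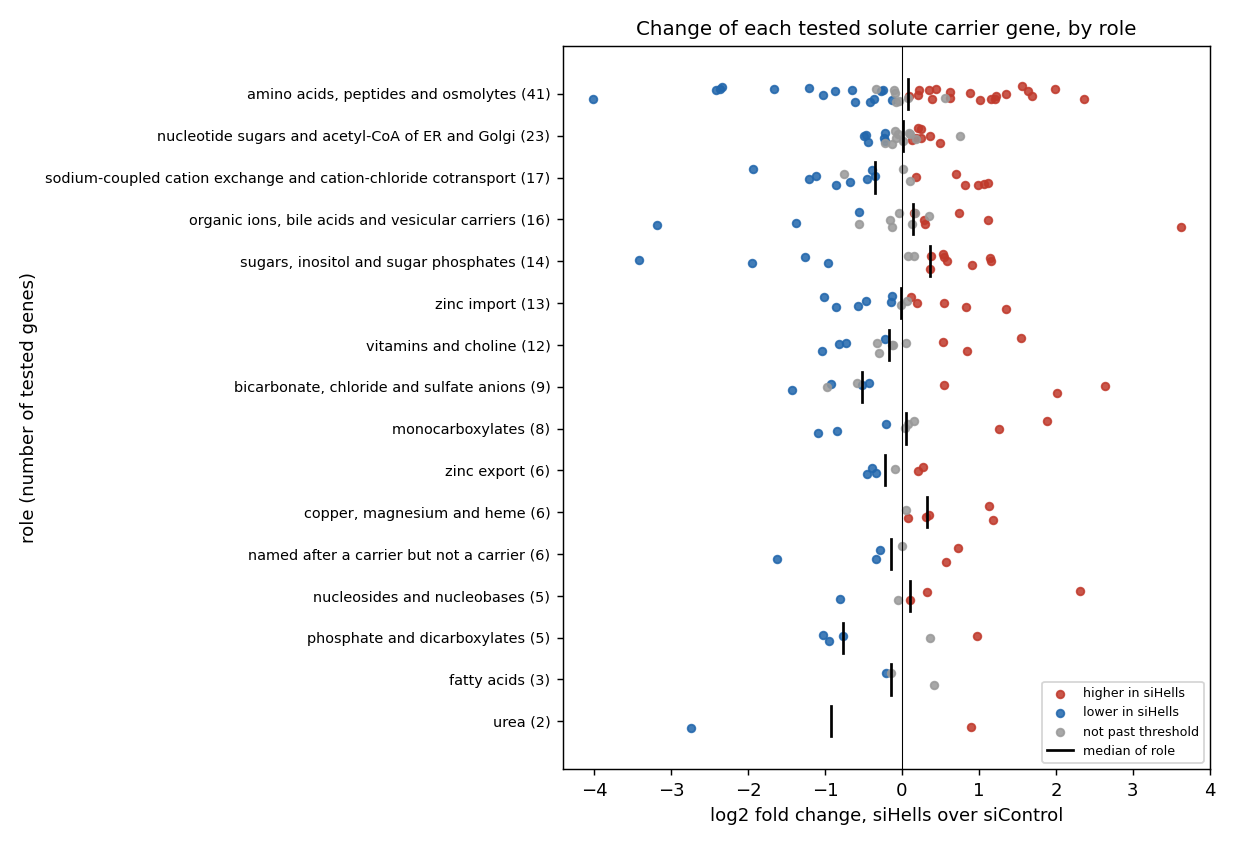
Log2 fold change of siHells over siControl (x axis) for the 186 tested solute carrier genes, grouped by the kind of solute they carry (y axis), with 1 point per gene coloured by its call and a black bar at each group's median. Rises and falls stand side by side in most groups. The copper, magnesium and heme group has 5 rises, including the small and unstable rise of Slc48a1, and no fall.

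Sugars, inositol and osmolytes held some of the largest falls. Slc5a3, the sodium-coupled carrier that brings in myo-inositol (chr16:92058322-92087473, plus strand, GRCm38.p6), was at 198 and 210.5 CPM in the siControl libraries and at 17.7 and 20.4 CPM in the siHells libraries. Every siHells library was far below every siControl library, a 10.7-fold fall (log2 fold change -3.42, SE 0.06, edgeR adjusted p = 3.71e-15). Its first exon is shared with Mrps6, a mitochondrial ribosomal protein gene, which fell from 59.5 and 58.5 CPM to 12.4 and 11.8 CPM (4.87-fold). How the authors' counting divided reads from the shared stretch was not tested. Slc6a12, the betaine and GABA carrier, was at 20.7 and 21.7 CPM in siControl and 4.43 and 3.93 CPM in siHells, a 5.07-fold fall. Slc6a6, the taurine carrier, was at 1177 and 1166 CPM in siControl and at 977 and 969 CPM in siHells. The fall of Slc6a6 was small (log2 fold change -0.27, SE 0.03) but its groups did not overlap. Slc6a8, the creatine carrier, was named after its values were seen and fell from 176 and 179 CPM to 90.0 and 85.2 CPM. Nfat5, the transcription factor known for raising osmolyte carriers in hypertonic medium, rose slightly, from 149 and 143 CPM to 159 and 165 CPM.

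Among the 14 tested carriers of sugars, inositol and sugar phosphates, 8 rose, 4 fell and 2 were not called, with a median log2 fold change of 0.37. Their summed level nevertheless dropped from 993 and 1021 CPM in siControl to 501 and 488 CPM in siHells, since Slc37a2 and Slc5a3 made up most of it in siControl. Slc37a2, a sugar phosphate carrier of the endoplasmic reticulum and lysosome that is abundant in macrophages and osteoclasts, was at 612 and 628 CPM in siControl and at 264 and 252 CPM in siHells. The siHells libraries were both far below the siControl libraries (2.40-fold, log2 fold change -1.26, SE 0.03, edgeR adjusted p = 3.77e-14). Slc45a3, a proton-coupled sugar carrier first known from prostate, fell from 21.2 and 21.4 CPM to 5.52 and 5.48 CPM (3.87-fold). In the other direction, Slc2a3, the high-affinity glucose transporter GLUT3, rose from 5.89 and 6.19 CPM to 14.2 and 12.7 CPM (2.22-fold). Slc2a9, a urate carrier, rose from 12.2 and 11.9 CPM to 23.3 and 22.1 CPM.

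The promoter of Slc37a2 is shown because it holds a site of the AP-1 family, the Fos and Jun dimers that act downstream of RANKL. The stretch is chr9:37255809-37255875 on the minus strand and that of Slc6a12 is chr6:121342486-121342552 on the plus strand (RefSeq, GRCm38.p6). Both are written 5′ to 3′, and the capitals mark the motif TGANTCA. The open base N is G in Slc37a2 (TGAGTCA) and T in Slc6a12 (TGATTCA), and the search counted any base there.
Slc37a2: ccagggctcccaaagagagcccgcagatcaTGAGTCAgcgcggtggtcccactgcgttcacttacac
Slc6a12: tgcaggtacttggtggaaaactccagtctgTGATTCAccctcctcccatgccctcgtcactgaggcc
RefSeq promoter windows of 300 bases were matched by symbol for 142 of the 189 genes, 193 windows in all. On either strand, TGANTCA was found in 8 of 70 windows of carriers that fell (11.4%), in 5 of 82 windows of carriers that rose (6.10%) and in 0 of 38 windows of carriers that were not called. The 8 windows belong to 7 genes, among them Slc9a3r2, which is not a carrier. Over all carriers it was found in 13 of 193 windows (6.74%), against 7.81% of all 32851 windows. A match is a description of letters and not evidence of binding.

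The amino acid, peptide and osmolyte group was the most numerous, with 41 tested genes of which 19 rose, 15 fell and 7 were not called (median 0.07). Several exchangers and facilitative carriers of neutral amino acids rose. Slc43a2, a facilitative carrier of branched-chain and aromatic amino acids, was at 502 and 523 CPM in siControl and at 1153 and 1123 CPM in siHells. Each siHells library held more than either siControl library (2.22-fold, log2 fold change 1.15, SE 0.03, edgeR adjusted p = 3.9e-14). An exon of Gm45606 overlaps 922 bases of Slc43a2 on the opposite strand, and reads of the pair cannot be told apart if strand was not used. Slc7a8, the LAT2 light chain that exchanges neutral amino acids, rose from 61.6 and 62.5 CPM to 145 and 145 CPM (2.34-fold). Slc7a2, a cationic amino acid carrier that supplies arginine in activated macrophages, rose at a low level from 3.53 and 2.88 CPM to 7.23 and 7.60 CPM (2.30-fold). Slc7a7, the y+LAT1 light chain that exports arginine and lysine in macrophages, rose by a log2 fold change of 0.44. Slc3a2, the CD98 heavy chain that partners Slc7a5, Slc7a6, Slc7a7, Slc7a8 and Slc7a11, rose from 143 and 144 CPM to 193 and 183 CPM. The heavy chain and its light chains Slc7a7, Slc7a8 and Slc7a11 thus all rose, while the light chain Slc7a6 was not called (-0.04, adjusted p = 0.589).

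Falls in the same group were led by Slc1a5, the sodium-dependent glutamine and neutral amino acid exchanger ASCT2. Slc1a5 was at 132 and 127 CPM in siControl and at 57.4 and 54.8 CPM in siHells, without overlap (2.31-fold, log2 fold change -1.21, SE 0.04). Slc38a2, the SNAT2 carrier of small neutral amino acids, fell from 215 and 215 CPM to 132 and 143 CPM. Slc7a1, the constitutive cationic amino acid carrier CAT1, fell from 41.8 and 41.2 CPM to 28.6 and 25.9 CPM. The glutamate carriers of the Slc1 family were sparse. Slc1a2 was counted 177 and 111 times in the siControl libraries against 10 and 8 times with siHells, and was named after its values were seen. Its counts summed over a group, relative to the group's summed TMM-scaled library totals, were 16.4-fold lower in siHells. The 95% interval of 10.2 to 28.1 is an exact binomial interval that covers counting error only. The related Slc1a1 went the other way, from 8 and 10 counts to 43 and 53 (log2 fold change 2.36, edgeR adjusted p = 0.000173). Slc1a3 was also called higher, with 4 and 9 counts against 13 and 29 (log2 fold change 1.63, edgeR adjusted p = 0.0309). The Slc1a3 call was lost without siControl replicate 1 (adjusted p = 0.229) and without siHells replicate 2 (adjusted p = 0.309). Slc1a1, Slc1a2 and Slc1a3 thus changed in both directions.

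Of the carriers known as targets of ATF4, the transcription factor of the amino acid response, 10 of 10 were tested, and 5 rose, 3 fell and 2 were not called (median 0.06, against -0.00 for all genes). Slc7a11, the cystine and glutamate exchanger xCT, rose from 16.9 and 16.7 CPM to 25.1 and 26.8 CPM. Slc1a4, the ASCT1 exchanger of alanine, serine and cysteine, rose from 4.48 and 3.38 CPM to 7.60 and 6.93 CPM. Both carry the ATF4 and CEBP composite motif in their promoter windows, which was not found in those of Slc43a1 and Slc3a2, which also rose, nor in those of Slc38a2 and Slc7a1, which fell. Slc43a1, a neutral amino acid carrier, rose from 12 and 12 counts to 55 and 44 counts. Slc7a5, the LAT1 light chain, was called at 20.7 and 19.5 CPM against 24.5 and 22.2 CPM (adjusted p = 0.0200). Its call was lost without siControl replicate 2 (adjusted p = 0.113), without siHells replicate 1 (adjusted p = 0.146) and with library totals as the scaling (adjusted p = 0.111). Slc7a3 and Slc6a9 were not called. Atf4 itself fell from 154 and 148 CPM to 128 and 124 CPM (log2 fold change -0.26).

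The promoter stretches of the 2 risen carriers are shown because they hold that composite motif, TGATGNAA on either strand. They lie at chr3:50443623-50443709 for Slc7a11 and chr11:20332710-20332747 for Slc1a4, both on the minus strand (RefSeq, GRCm38.p6). Capitals mark the motif, read on the opposite strand where it is written TTGCATCA.
Slc7a11: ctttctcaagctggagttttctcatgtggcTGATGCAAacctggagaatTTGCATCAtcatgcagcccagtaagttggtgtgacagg
Slc1a4: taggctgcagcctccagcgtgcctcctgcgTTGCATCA
The motif was found in 7 of 82 windows of carriers that rose (8.54%), in 0 of 70 windows of carriers that fell, in 2 of 38 windows of carriers that were not called, and in 3.97% of all windows. The windows of rising carriers belong to 6 genes, since some genes have several start sites. A window without the motif says only that these letters are not in those 300 bases.

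**Figure D2:**
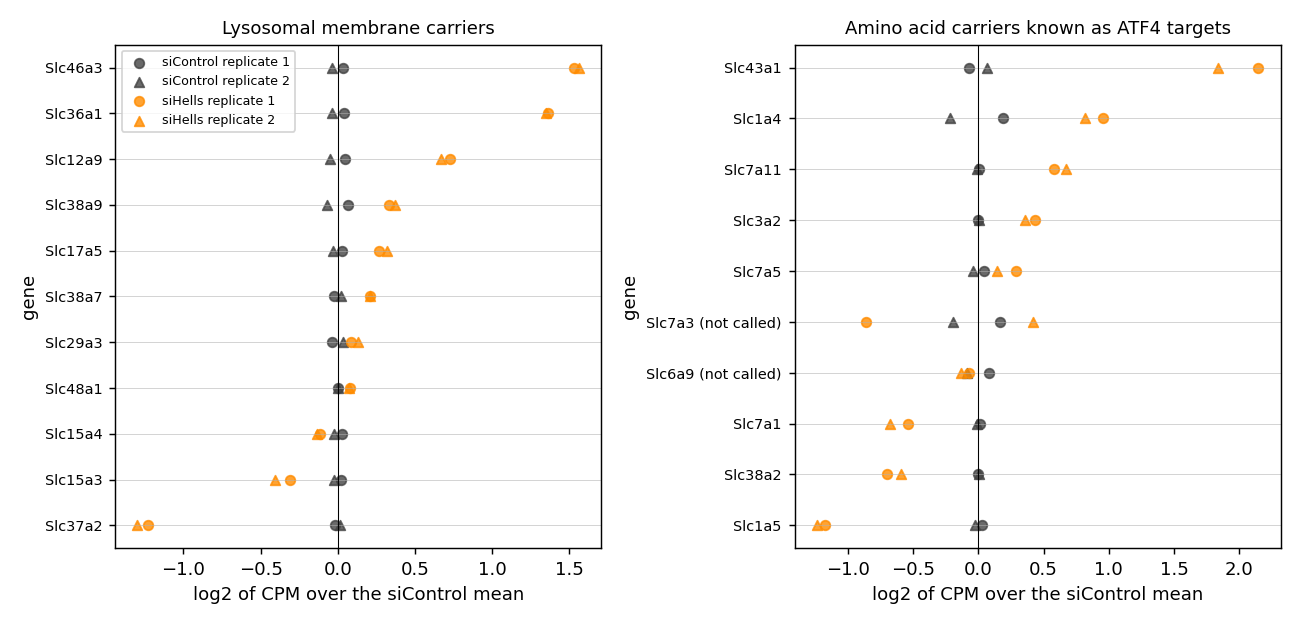
Log2 of each library's CPM over the siControl mean of the gene (x axis) for the lysosomal membrane carriers (left) and the amino acid carriers known as ATF4 targets (right), with grey symbols for siControl and orange symbols for siHells. The siHells symbols of Slc46a3 and Slc36a1 lie above 1 and those of Slc37a2 and Slc1a5 below -1, while Slc7a3 and Slc6a9 overlap siControl.

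On the lysosomal membrane, 8 of 11 tested carriers of the list rose, 3 fell and none was uncalled (median log2 fold change 0.21). Of all genes tested, 29.0% rose and 29.5% fell. The list is not complete, so the counts of rises and falls depend on which carriers it holds. For example, it leaves out Slc31a2, which rose and is placed below in endosomes and lysosomes. Slc46a3, a lysosomal proton-coupled carrier, was at 42.7 and 40.7 CPM in siControl and at 120.4 and 123 CPM in siHells. Both siHells libraries were far above both siControl libraries (2.92-fold, log2 fold change 1.55, SE 0.04, edgeR adjusted p = 1.82e-13). Slc36a1, the proton-coupled PAT1 carrier that exports small amino acids from the lysosome, rose from 68.6 and 64.9 CPM to 172 and 170.3 CPM (2.56-fold). Slc12a9, an ammonium and chloride carrier, rose from 31.0 and 28.9 CPM to 49.5 and 47.6 CPM. Slc38a9, the arginine sensor of the mTORC1 pathway, Slc17a5, the sialic acid exporter, and Slc38a7, the glutamine and asparagine exporter, rose by log2 fold changes of 0.35, 0.29 and 0.21. The falls were those of Slc37a2, given above, and of the histidine and peptide carriers Slc15a3 (-0.36) and Slc15a4 (-0.13). Because Slc37a2 took a large share of these counts, the summed level of the 11 genes fell from 1494 and 1500 CPM to 1381 and 1372 CPM although 8 of them rose.

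Calls in this list that rest on small changes were not stable. Slc29a3, the lysosomal nucleoside carrier, changed by 0.11 on the log2 scale (adjusted p = 0.0191) and lost its call without siControl replicate 1 (adjusted p = 0.299). Slc15a4 lost its call without siControl replicate 1 (adjusted p = 0.164), without siControl replicate 2 (0.0550 adjusted p) and without siHells replicate 2 (0.0545 adjusted p). Slc48a1, the heme carrier of the phagolysosome, was at 278 and 278 CPM against 293 and 292 CPM (adjusted p = 0.0477). The Slc48a1 call was lost in 3 of the 4 fits that left out a library (without siControl replicate 1, siControl replicate 2 or siHells replicate 1, adjusted p = 0.237, 0.142 and 0.0554), with the replicate block (adjusted p = 0.0745), and its change was 0.00 with library totals as the scaling.

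The CLEAR element TCACGTGA, the site of TFEB, TFE3 and MITF in lysosomal genes, was found in 3 of 193 windows, those of Slc36a1, Slc37a3 and Slc35a5, and in 0.974% of all windows. These 3 genes rose (log2 fold changes 1.36, 0.54 and 0.25). The element was in none of the 70 windows of carriers that fell and none of the 38 of carriers that were not called, numbers of windows too small to read an absence against that background. Their stretches are chr11:55204306-55204343 (plus strand), chr6:39377708-39377751 (minus strand) and chr16:45158727-45158794 (minus strand), from RefSeq on GRCm38.p6, with the element in capitals.
Slc36a1: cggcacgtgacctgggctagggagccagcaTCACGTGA
Slc37a3: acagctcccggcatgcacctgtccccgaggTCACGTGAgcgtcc
Slc35a5: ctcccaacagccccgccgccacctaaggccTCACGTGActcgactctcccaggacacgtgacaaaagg
Of the factors, Tfe3 rose (0.44), while Tfeb (-0.43) and Mitf (-0.59) fell. The promoter of Slc46a3, the lysosomal carrier with the largest rise, did not hold these letters in its window.

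Nucleoside carriers gave the largest rise among carriers that averaged at least 1 on the log2 CPM scale. Slc28a2, the concentrative carrier that brings purine nucleosides and uridine in with sodium, was at 14.4 and 14.8 CPM in siControl and at 71.6 and 73.0 CPM in siHells. The groups were far apart (4.96-fold, log2 fold change 2.31, SE 0.06, edgeR adjusted p = 2.92e-14). Slc29a1, the equilibrative carrier ENT1, rose from 115 and 104 CPM to 135 and 139 CPM. Slc43a3, the purine nucleobase carrier, fell from 22.9 and 23.2 CPM to 12.5 and 13.9 CPM. Of the 5 tested genes 3 rose and 1 fell.

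Copper, magnesium and heme carriers rose in 5 of 6 tested genes (background 29.0% of all genes tested), the exception being Slc41a3 (0.05, not called). Among the 5 is the heme carrier Slc48a1 (0.07), whose small rise was unstable, as given above. The summed level of the group went from 516 and 514 CPM in siControl to 761 and 759 CPM in siHells. Slc31a1, the high-affinity copper importer CTR1, was at 152 and 148 CPM in siControl and at 328 and 328 CPM in siHells (2.19-fold, SE of the log2 fold change 0.03). Slc31a2, the related CTR2 of endosomes and lysosomes, rose from 32.6 and 32.1 CPM to 75.2 and 72.3 CPM (2.28-fold). Both copper carriers were thus higher in each siHells library. The magnesium carriers Slc41a2 and Slc41a1 rose by 0.31 and 0.35 on the log2 scale.

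Zinc carriers moved both ways. Of 13 tested importers of the Slc39 family, which bring zinc into the cytosol, 5 rose, 6 fell and 2 were not called. The rises were those of Slc39a12, Slc39a8, Slc39a14, Slc39a3 and Slc39a9 (log2 fold changes 1.35, 0.83, 0.54, 0.19 and 0.11). The small rises of Slc39a3 and Slc39a9 lost their calls in some fits that left out a library. Slc39a13, the ZIP13 carrier of the Golgi and of vesicles, fell from 84.5 and 82.0 CPM to 41.2 and 41.1 CPM (2.02-fold). Slc39a10, at the plasma membrane, fell from 53.1 and 54.4 CPM to 29.0 and 30.6 CPM. Slc39a11 fell by 0.57 and Slc39a6 by 0.47 (log2 scale). The abundant Slc39a1 and Slc39a7 fell by 0.13 and 0.14, and both lost the call without siControl replicate 2 (adjusted p = 0.0612 and 0.0602). Of 6 tested exporters of the Slc30 family, Slc30a5, Slc30a1 and Slc30a6 fell (-0.46, -0.39 and -0.34) and 2 rose, among them Slc30a7 (0.27). The zinc-binding metallothioneins Mt1 and Mt2 rose by 0.37 and 1.29. Over carriers of all roles, the metal response element in its forms TGCACNC and TGCGCNC was found in 29 and 43 of the 193 windows. The latter is 22.3%, and the shares of all windows were 12.6% and 15.4%. In risen, fallen and uncalled carriers, TGCACNC was in 15.9%, 15.7% and 13.2% of windows and TGCGCNC in 23.2%, 20.0% and 26.3%. Of the other motifs searched on both strands, the antioxidant response element TGACNNNGC was found in 18.1% of the carriers' windows and 12.4% of all, and the glucocorticoid response core ACANNNTGT in 3.63% and 6.85%. Split in the same way by call, the former was in 13.4%, 20.0% and 26.3% of windows and the latter in 3.66%, 5.71% and 0%.

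Phosphate and dicarboxylate carriers fell in 3 of 5 tested genes (background 29.5% of all genes tested). Slc20a1, the sodium-phosphate carrier PiT1, fell from 105 and 105 CPM to 61.9 and 61.4 CPM (log2 fold change -0.77). Slc20a2, the related PiT2, fell from 26.4 and 27.3 CPM to 14.5 and 11.8 CPM. Slc13a3, the sodium-dicarboxylate carrier of succinate and related acids, fell from 42.4 and 44.4 CPM to 22.6 and 22.4 CPM. Xpr1, the phosphate exporter, which has no Slc symbol, fell as well (-0.76). Slc13a5, the citrate carrier, was called higher (0.98, adjusted p = 0.0426) at under 1 CPM in each library, and that call was lost in all 4 fits that left out a library (adjusted p from 0.0728 to 0.193).

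Cation and anion carriers were mixed. Of 17 tested genes for sodium-coupled cation exchange and cation-chloride cotransport, 6 rose, 8 fell and 3 were not called (median -0.35). Slc9a9, the sodium-proton exchanger NHE9 of endosomes, rose from 110 and 112 CPM to 231 and 233 CPM. Slc8a1, the sodium-calcium exchanger NCX1, rose from 62.2 and 60.7 CPM to 132 and 135 CPM, and Slc8b1, the mitochondrial NCLX, rose from 76.2 and 75.9 CPM to 152 and 149 CPM. All 3 were higher in each siHells library than in either siControl library. Slc24a5, a potassium-dependent sodium-calcium exchanger known from melanosomes, fell from 6.46 and 4.18 CPM to 1.40 and 1.40 CPM, and 921 bases of its exons overlap Myef2 on the opposite strand. Slc12a5, the cotransporter KCC2, fell from 12.7 and 13.5 CPM to 6.36 and 4.96 CPM. Among 9 tested anion carriers, 3 rose and 4 fell. Slc4a7, the sodium-bicarbonate cotransporter NBCn1, fell from 136 and 141 CPM to 67.7 and 78.2 CPM. Slc4a3, the anion exchanger AE3, fell from 6.57 and 6.24 CPM to 2.05 and 2.72 CPM, whereas the bicarbonate carrier Slc4a8 rose from 0.455 and 0.679 CPM to 3.65 and 3.37 CPM (log2 fold change 2.64) and Slc26a11 rose by 0.55.

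Organic ion and vesicular carriers held 6 rises, 3 falls and 7 uncalled genes of 16. Slc18a1, the vesicular monoamine transporter VMAT1, was at 22.0 and 26.3 CPM in siControl and at 2.64 and 2.68 CPM in siHells, a 9.04-fold fall (log2 fold change -3.18, SE 0.13). Slc22a4, the ergothioneine carrier, fell from 21.0 and 20.4 CPM to 7.73 and 8.26 CPM (2.59-fold). Slc10a6, a carrier of sulfated steroids, was counted 4 and 7 times in the siControl libraries against 85 and 57 times with siHells. Its counts summed over a group, relative to the group's summed TMM-scaled library totals, were 12.6-fold higher in siHells. The 95% interval of 6.81 to 25.7 covers counting error only. The urea carrier Slc14a1 rose from 46 and 37 counts to 76 and 83 counts (log2 fold change 0.90), while its relative Slc14a2 fell from 101 and 134 counts to 26 and 10 counts (log2 fold change -2.74), and its log2 fold change was -3.57 without siHells replicate 1.

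Monocarboxylates, vitamins and nucleotide sugars completed the set. Slc16a9, a monocarboxylate family member that carries carnitine, rose from 2.02 and 1.74 CPM to 6.51 and 7.40 CPM (3.69-fold), and 491 bases of its exons overlap Gm7097 on the opposite strand. Slc16a12, another member, rose from 31 and 22 counts to 58 and 73 counts (log2 fold change 1.26). The lactate carriers Slc16a1 (MCT1) and Slc16a3 (MCT4) fell, by 0.84 and 0.21 on the log2 scale. Slc44a1, a choline carrier, fell from 232 and 234 CPM to 130 and 135 CPM, and Slc46a1, the proton-coupled folate carrier, fell from 14.9 and 13.7 CPM to 7.58 and 6.37 CPM. Slc49a4 rose from 25.4 and 25.8 CPM to 48.3 and 43.9 CPM. The 23 carriers of nucleotide sugars and acetyl-CoA in the endoplasmic reticulum and Golgi ranged between -0.49 and 0.76, with 7 rises, 6 falls and 10 uncalled genes. Among them Slc35e1 rose by 0.49 and Slc35a4 fell by 0.44. Of the 3 tested fatty acid carriers, Slc27a1 fell by 0.21 and the others were not called. Of the 6 genes that are no carriers, the scaffold Slc9a3r2 fell from 9.01 and 8.25 CPM to 2.97 and 2.63 CPM and its relative Slc9a3r1 rose from 62.9 and 62.5 CPM to 104 and 104 CPM.

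**Figure D3:**
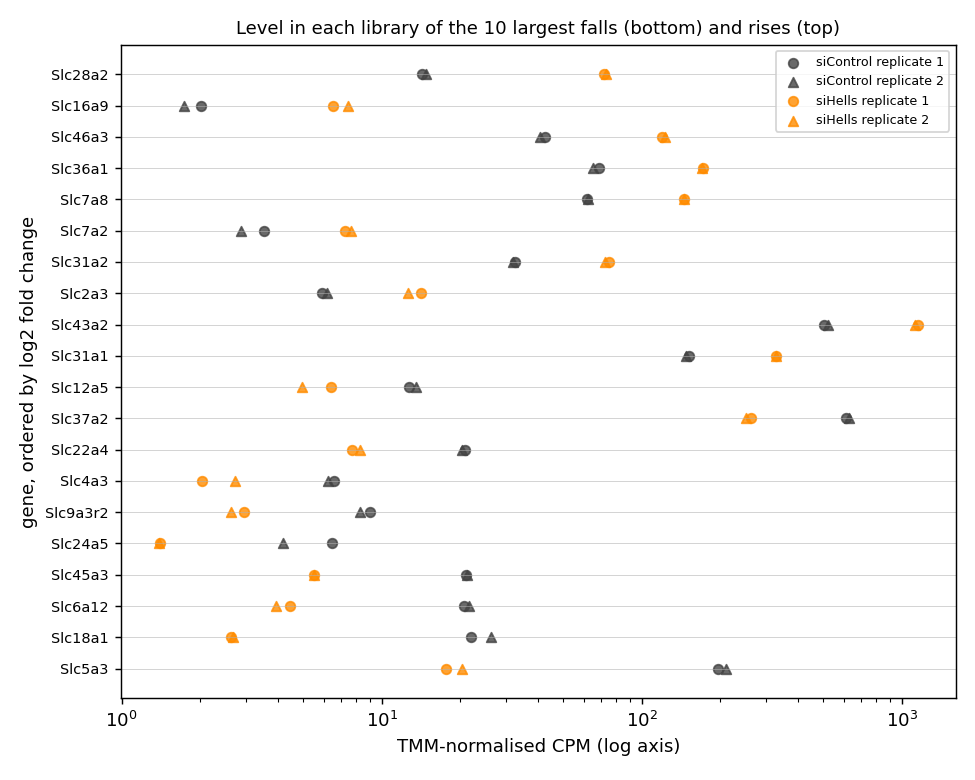
TMM-normalised CPM (log x axis) in each of the 4 libraries for the 10 carriers with the largest falls and the 10 with the largest rises among those averaging at least 1 on the log2 CPM scale (y axis, ordered by log2 fold change), with grey symbols for siControl and orange symbols for siHells. The replicates of a group lie close together and the groups do not overlap for any of the 20 genes, with Slc5a3 at the bottom and Slc28a2 at the top.

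In many families, called members differed in direction. Of the families with at least 2 called members, 22 held both rises and falls, 6 only rises (Slc8, Slc10, Slc17, Slc29, Slc31 and Slc41) and 4 only falls (Slc5, Slc18, Slc20 and Slc24). Of all tested carriers 39.2% rose and 34.9% fell, so families with several called members can often hold both directions from this split alone. Whether the 22 exceed it was not tested. Slc13 held both directions only through Slc13a5, whose rise was unstable, as given above. Slc22 did so only through Slc22a17 (log2 fold change 0.74). Slc17 and Slc29 count here only because Slc17a8 (1.11) and Slc29a3 (0.11) were called. The calls of Slc22a17, Slc17a8 and Slc29a3 could each be lost when a library was left out. Slc18 counts here only because Slc18b1 was called. The log2 fold change of Slc18b1 was -0.56, but -0.25 without siHells replicate 1 and -0.95 without siHells replicate 2. The Slc43 family held rises of Slc43a1 and Slc43a2 and a fall of Slc43a3, the nucleobase carrier. The Slc46 family held a rise of the lysosomal Slc46a3 and a fall of the folate carrier Slc46a1.

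Per length of exon, the order of the abundant carriers changed between the groups. Slc6a6 was highest in both, at 138.5 CPM per kb in siControl and 115 CPM per kb in siHells. Slc37a2 went from rank 3 to rank 12 of the 187 genes with an exon length (93.3 to 38.9 CPM per kb). Slc43a2 moved from rank 6 to rank 2 (51.0 to 113 CPM per kb) and Slc46a3 from rank 26 to rank 9. Slc5a3 went from rank 24 to rank 122 (18.7 to 1.75 CPM per kb), and Slc28a2 from rank 102 to rank 28 (3.47 to 17.2 CPM per kb).

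**Figure D4:**
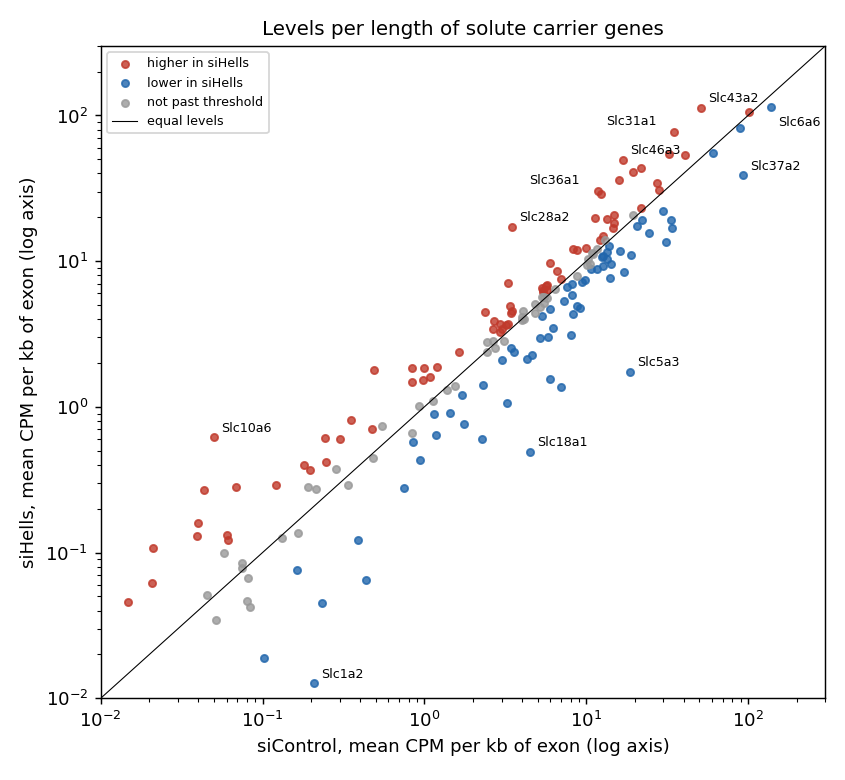
Mean level per kilobase of exon in siHells (y axis) against siControl (x axis), both in CPM per kb on log axes, with 1 point per tested solute carrier gene coloured by its call and a line of equal levels. Slc43a2 lies above the line near the top, and Slc37a2, Slc5a3, Slc18a1 and Slc1a2 lie below it.

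Transporters without a plain Slc symbol, partner subunits and regulators were listed alongside. The background for these lists is again 29.0% risen and 29.5% fallen among all genes tested. Of 42 tested atypical carriers 18 rose, 11 fell and 13 were not called (median 0.11). Slco2b1, an organic anion uptake carrier, was at 4.11 and 4.14 CPM in siControl and at 63.0 and 62.5 CPM in siHells, a 15.2-fold rise. Ank, which exports pyrophosphate and ATP and is known in mineralisation, fell from 151 and 149 CPM to 43.5 and 43.2 CPM. Of 30 ABC transporters 12 rose and 15 fell, and Abca9 and Abcc3 rose 5.77-fold and 3.20-fold. Of 10 partner subunits 6 rose and 4 fell; Cd44, a stabiliser of xCT, fell by 0.86 on the log2 scale, and Tfrc, the transferrin receptor, fell by 1.48. Of 26 regulators that respond to solutes 12 rose, 9 fell and 5 were not called, and Mlxip, the glucose-sensing MondoA, rose by 0.72 while Ppargc1b fell by 1.48.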

How the data were processed

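RNA of 4 libraries of bone marrow-derived mouse macrophages was compared, siControl against siHells, 2 libraries each. The authors deposited raw read counts per gene symbol, and the values are whole numbers. The submitters' processing notes name build mm10 and the tools HISAT2 2.1.0, StringTie 2.1.3b, Trimmomatic 0.38, FastQC and edgeR. Neither they nor the labels give the steps' order, the annotation, or how strand was handled in counting. Per the labels' protocols, both the SMARTer mRNA-Seq and the TruSeq Stranded mRNA kit are named, so genes that share exon sequence with a neighbour are uncertain (43 of the 189 carriers on the opposite strand and 10 on the same strand). No deposited count was below 1 (0 zeros), so genes with no read in a library were not analysed here.

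Genes were kept by filterByExpr (minimum count 10, which is 0.184 CPM, and minimum total 15), leaving 15651, and scaled by TMM. The test was edgeR 4.0.16 (R 4.3.3, limma 3.58.1) quasi-likelihood with robust dispersions, group as the only term and 2 residual degrees of freedom. P-values were adjusted by Benjamini-Hochberg, with a threshold of 0.05. SE is the size of the log2 fold change over the square root of F. Fold changes of single genes are fitted values unless given as ratios of summed counts. The common biological coefficient of variation was 0.0418. The scripts were tested on simulated data. Gene lengths came from the GENCODE annotation of GRCm38 and promoters from RefSeq.

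Named genes were chosen by rule. The 10 largest rises and 10 largest falls came from called genes without group overlap that averaged at least 1 on the log2 CPM scale. Added were up to 4 carriers with the smallest p in each role, the 10 highest per length, and the full lysosomal and ATF4 lists. Slc1a2, Slc6a8, Slc7a6, Slc7a7, Slc37a3 and Slc41a3 were named after their values were seen. So were Slc17a8, Slc22a17, Slc39a3, Slc39a8, Slc39a9, Slc39a12 and Slc39a14. The same holds for some genes of the lists outside the carriers (Mrps6, Nfat5, Atf4, Tfeb, Tfe3, Mitf, Mt1, Mt2 and Xpr1). The members, roles and lists were chosen with earlier results of these data known, and the roles of 8 members were amended after the table was seen. Alternatives were other scalings, filters and tests (DESeq2 1.42.0, limma-voom), a replicate block and leaving out each library. One carrier that the naming rule selects is not reported here.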

Additional observations from a re-analysis of the deposited data

How the results depend on the processing

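No called carrier changed sign under any alternative run. Counts of rises and falls were 73 and 65 as reported, 60 and 72 with library totals, 65 and 69 with upper-quartile scaling, 59 and 61 with the DESeq2 Wald test, and 26 and 30 in the test against a 1.5-fold change. Leaving out each library in turn gave 60 to 69 rises and 59 to 63 falls. The numbers shared by replicates gave a correlation of deviations of 0.050 over all genes, which does not show pairing, and the fit with the replicate block called 72 rises and 64 falls. Leaving aside the test against a 1.5-fold change, 106 of the 138 called carriers were tested and called in every fit, 4 more lost no call but were removed by the filter of 1 CPM, and 28 lost the call in at least 1 fit. Slc7a3, not called, had a log2 fold change of -0.09 that became 0.10 without siControl replicate 1 and 0.41 without siHells replicate 1, and was -0.86 without siHells replicate 2; the cause was not tested. With 2 libraries a group, small changes and genes under 1 CPM are the least secure, and 24 carriers were under 1 CPM in every library.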
